A study of Mus musculus with 96 samples.

Results

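The response of RAW 264.7 cells, a mouse macrophage line, to lipopolysaccharide (LPS) after 1 h was measured on 6 of the 96 2-colour arrays of a study of ligands given alone or in pairs. The members were chosen by title: the 6 arrays that compare cells given LPS alone for 1 h with untreated cells kept for 1 h. They fall into 3 sets of 2 arrays, which hold the same comparison with the dyes exchanged, and so give 3 of the 48 set values of the series. LPS was given at 100 ng, with no volume stated, together with 100 pM of LPS-binding protein. The untreated cells received neither. Used beside it were LPS at the same dose for 30 min, 2 h and 4 h and interferon gamma (IFNG) at 5 nM for 1 h, each against untreated cells of the same time. All samples are of 1 cell line. Whether the sets are separate cultures is not said in the labels, so the p-values reflect how far sets spread, and that spread may be technical.

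LPS is the outer membrane lipid of Gram-negative bacteria. LPS-binding protein and CD14 hand it to the receptor TLR4 with its partner MD-2, and TLR4 signals through MyD88 to NF-kB and the MAP kinases, and through TRIF to IRF3 and interferon beta. In macrophages a first wave of genes is transcribed from factors already present in the cell, among them the genes of transcription factors, of cytokines and of the inhibitors that later shut the response down.

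Each value is a log2 ratio of treated to untreated RNA, given per set as the mean of its 2 arrays, so that a dye effect cancels. A gene is said to rise or fall where limma, with the spread pooled over all groups, gave an adjusted p under 0.05 over all 11593 genes tested. Of these, 9755 are named genes, and 1838 are probes that the annotation leaves unnamed. The arrays held a value for 14272 to 14917 of 16281 probes. Before the sign was turned, the exchanged arrays correlated at -0.149 in set 1 and -0.440 in set 3, as a dye exchange should give, but at 0.102 in set 2. In that set 548 of 646 called genes with both values had the same sign in both dyes, against 597 of 646 in set 1 and 634 of 649 in set 3. Set values correlated across genes at 0.626 to 0.729, a description over genes that share the arrays. Since the values are ratios, they give no level of a marker gene in either RNA. None of 24 macrophage identity genes and none of 22 markers of other cell types tested rose or fell, against 5.61% of all genes tested. At that share lists this short may hold no call.

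After 1 h of LPS, 363 genes had risen and 287 had fallen, which is 3.13% and 2.48% of the genes tested, or 5.61% in all. The rises were larger. Among the risen genes 119 rose at least 2-fold (1.03% of genes tested), and among the fallen 6 fell that far (0.0518%). The median response was 0.70 over the risen genes and -0.46 over the fallen, against -0.010 over all genes tested. All 6 arrays had the same sign for 306 of the risen and 200 of the fallen genes. Without set 1 the counts were 201 risen and 72 fallen, without set 2 they were 257 and 153, and without set 3 they were 305 and 223.

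Among named genes above 0 on all 6 arrays, the 20 largest rises were led by Nfkbiz, which encodes the nuclear IkB protein IkB zeta. It stood at 5.43, 4.48 and 5.23 in sets 1, 2 and 3, a 33.0-fold mean rise. Phlda1, a gene linked to cell death, stood at 4.13, 4.06 and 4.73. Egr1, a zinc finger factor of the early response, stood at 4.20, 2.89 and 5.33, the widest range of the 20 genes. Set 2 was the lowest for each of these 3 genes. The gene for the phosphatase Dusp1, which inactivates p38 and JNK, stood at 3.65, 3.70 and 4.47. Btg2, which slows growth and promotes removal of mRNA tails, stood at 4.27, 3.10 and 4.05. The lipid-sensing receptor gene Gpr84 stood at 2.67, 3.01 and 2.58, and Marcksl1, which acts at the cell cortex, at 2.75, 2.22 and 2.12. Set 3 was the highest of the sets for 11 of the 20 genes and set 2 the lowest for 14. Lynx1 and Arc, a gene of the neuronal early response, have values on only 5 arrays and so stand outside the 20, though Lynx1 stood at 3.24 and 3.89 in sets 2 and 3 and Arc at 3.27 and 3.23 in sets 1 and 3. They are named after their values were seen. All 20 held their calls under each set left out of every group.

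**Figure D1:**
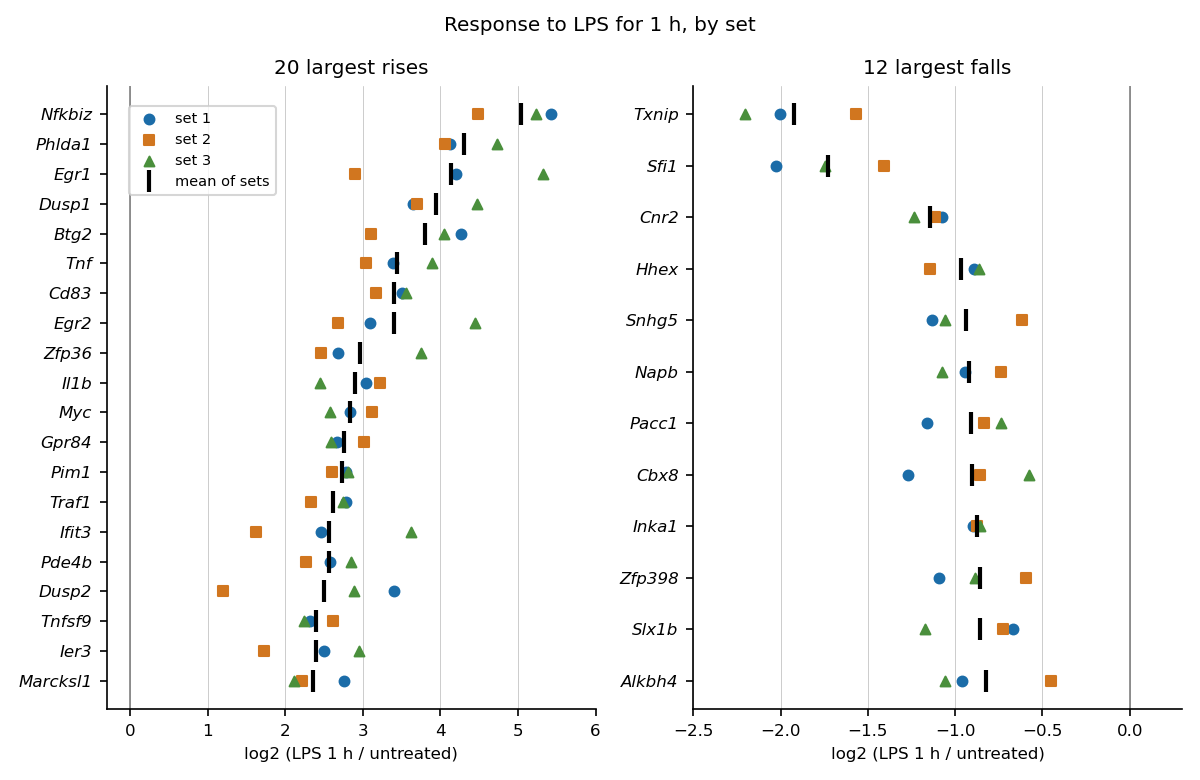
Log2 ratio of LPS 1 h to untreated RNA in sets 1, 2 and 3 (points, each the mean of 2 dye-exchanged arrays) and the mean of sets (bar) for the 20 largest rises (left) and the 12 largest falls (right). The rises run from 2.36 to 5.04 and the falls from -0.82 to -1.93, all chosen for the same sign on all 6 arrays.

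Ifit3 was among the 20 by 1 probe and needs care. That probe stood at 2.46, 1.62 and 3.63 in the 3 sets, and already at 3.03 at 30 min. Another Ifit3 probe, left out of the tests for too few values elsewhere, had a mean of -0.05 at 1 h and 3.10 at 2 h. The probes disagree at 1 h, and which of them reports Ifit3 was not tested.

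Gene lists, here and below, were chosen with earlier results of these data known. Their counts describe the lists and are not a test of them. Most tested genes of the NF-kB list rose. Of 14 tested members, 12 rose and none fell, with a median of 1.14, against 3.13% and 2.48% of all genes tested. The subunit genes Rel, Relb, Nfkb2 and Rela rose by 1.27 ± 0.40, 1.19 ± 0.47, 1.11 ± 0.08 and 0.83 ± 0.11 (SD, n = 3 sets). Rela stood at 0.71, 0.86 and 0.92 in the 3 sets, a smaller but even rise. Among the inhibitors, Nfkbie, which encodes IkB epsilon, stood at 1.25, 1.37 and 1.10. Tnfaip3, which encodes the ubiquitin-editing enzyme A20, stood at 1.96, 1.57 and 2.45. Its partner Tnip1 stood at 1.37, 0.65 and 0.91. Traf1, an adaptor of TNF receptors, rose by 2.62 ± 0.25, and the adaptor gene Tank by 1.00 ± 0.15. Birc3, a ubiquitin ligase that protects from death, rose by 1.16 ± 0.10. Bcl3, an IkB protein that acts in the nucleus, stood at 1.36, 1.21 and 0.48, and its call was lost without set 1 (adjusted p = 0.0833) and without set 2 (adjusted p = 0.0598). Nfkbib stood at 0.33 and Tnip2 at 0.15, and neither passed the test. At 30 min 4 of the 14 had risen and at 2 h 13, against 0.725% and 7.84% of all genes tested.

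RefSeq promoters of build GRCm38.p6 were searched in the 250 bases before each gene start, on either strand, for an NF-kB motif, written as GGG, any 2 bases and TTTCC. Of 12 genes of this list with a promoter in the table, 4 held a match: Nfkb2, Rel, Tank and Tnfaip3. Across all 7757 tested genes with a promoter, 137 held a match (1.77%), as did 1.41% of all 32851 promoters in the table. Stretches around 3 of the matches are shown because they belong to genes of the NF-kB system that rose. They were chosen after the values were seen, and capitals mark the match. The strand given is that of the gene, along which the stretch is printed. In Tnfaip3 and Rel the capitals are the reverse complement of the motif as written above, so the motif lies on the strand opposite to the gene.
Tnfaip3 (chr10:19015411-19015482, minus strand): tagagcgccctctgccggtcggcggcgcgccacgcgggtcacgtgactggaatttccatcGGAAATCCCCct
Rel (chr11:23770991-23771120, minus strand): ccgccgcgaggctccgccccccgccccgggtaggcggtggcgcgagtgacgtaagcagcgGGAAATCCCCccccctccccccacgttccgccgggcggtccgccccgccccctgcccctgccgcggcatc
Nfkb2 (chr19:46304666-46304736, plus strand): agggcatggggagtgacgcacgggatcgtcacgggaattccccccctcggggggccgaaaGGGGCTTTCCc

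The Tnfaip3 and Rel matches have the same letters and begin 12 and 91 bases before the start, and the Nfkb2 match begins 11 bases before it. A match describes letters and not a bound site, and a promoter without one may hold NF-kB sites of other letters. Of 255 risen genes with a promoter, 8 held the motif (3.14%), and none of the 14 such genes among the 20 largest rises did. Of 193 fallen genes with a promoter, 5 held it (2.59%).

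Early response transcription factors gave the highest count of rises of the 26 lists. Of 30 tested, 18 rose and none fell, with a median of 0.97, against 3.13% and 2.48% of all genes tested. The Egr genes differed among themselves: Egr2 stood at 3.10, 2.67 and 4.45, Egr3 at 1.49, 1.74 and 1.47, and Egr4 had a mean of -0.09. Egr1 and Egr2 were both highest in set 3 and lowest in set 2. Among AP-1 genes, Fosl1 stood at 2.22, 1.87 and 2.45 and Fosl2 at 2.05, 1.77 and 1.27. Fos had a mean of 0.06 and did not pass the test, while Jund rose by 1.09 ± 0.09. Jun stood at 0.55, 0.22 and 1.03 and no longer passed without set 1 or set 3. Atf3, a stress-induced repressor, rose by 1.80 ± 0.31, and Maff, a small Maf factor, by 1.74 ± 0.34. Myc stood at 2.84, 3.12 and 2.57. The orphan nuclear receptor Nr4a1 rose by 1.61 ± 0.17, while Nr4a2 and Nr4a3 had means of -0.0022 and -0.056. Cebpb, a factor of macrophage differentiation, rose by 1.07 ± 0.14. Bhlhe40, a repressor tied to the circadian clock, rose by 1.36 ± 0.24. Irf1 stood at 0.62, 0.19 and 0.97 and no longer passed without set 1 or set 3, and Mafk not without set 1. At 30 min 14 of the 30 had risen and at 2 h 13, against 0.725% and 7.84% of all genes tested.

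Some genes of kinase feedback and of mRNA decay rose. Of 13 tested genes of MAP kinase and G protein feedback, 7 rose and none fell, against 3.13% and 2.48% of all genes tested. The median of the 13 was 0.77. Besides Dusp1, the phosphatase genes Dusp2, Dusp16 and Dusp8 rose. Dusp2 stood at 3.40, 1.20 and 2.89, but the sets average different probes. Sets 1 and 3 hold 2 tested probes, with means of 4.61 and 1.52 over their sets, and set 2 rests on the weaker alone, so its lower value cannot be read as a difference between sets. Dusp16 stood at an even 1.18, 0.97 and 1.01. Dusp8 stood at 0.70, 0.69 and 1.26. The stress-signalling genes Gadd45a and Gadd45b stood at 2.07, 2.37 and 0.90 and at 2.39, 2.11 and 1.46, both lowest in set 3. Map3k8, the kinase Tpl2 that links NF-kB to ERK, stood at 0.47, 1.14 and 0.67 and no longer passed without set 2. Of 6 tested genes of mRNA decay and growth restraint, Btg2, Zfp36 and Zfp36l1 rose. Zfp36 encodes tristetraprolin, which binds Tnf mRNA and speeds its decay. It stood at 2.68, 2.46 and 3.76. Its relative Zfp36l1 stood at 1.87, 1.60 and 0.88, and Zfp36l2 had a mean of -0.12.

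Of the 20 largest rises, 14 have a promoter in the table, and of these Dusp1 and Btg2 held the cAMP response element TGACGTCA. The stretches are shown for that reason, with the element in capitals.
Dusp1 (chr17:26508548-26508675, minus strand): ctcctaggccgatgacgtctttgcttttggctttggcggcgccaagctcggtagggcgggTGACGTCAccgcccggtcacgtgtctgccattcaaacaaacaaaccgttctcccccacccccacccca
Btg2 (chr1:134079254-134079381, minus strand): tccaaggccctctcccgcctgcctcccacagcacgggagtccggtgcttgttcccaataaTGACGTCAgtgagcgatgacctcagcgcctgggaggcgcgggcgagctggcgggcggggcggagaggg

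The element begins 143 bases before the Dusp1 start and 166 bases before the Btg2 start. It was held by 13 of 255 risen genes with a promoter (5.1%), 6 of 193 fallen genes (3.11%) and 181 of all 7757 tested (2.33%). The other risen genes with it include Ppp1r15a, Maff, Plk2, Rcan1, Dusp8 and Clk4, and Dusp8 held it at 2 places. The AP-1 motif TGANTCA was held by 10.2% of the risen, 2.59% of the fallen and 7.27% of all tested genes. The EGR motif GCGNGGGCG was held by 13.7%, 11.9% and 8.91%, the CArG box by 2.35%, 0.0% and 1.64%, and TATAAA by 10.6%, 8.81% and 11.7% of the same groups. Some genes have several promoters in the table and count once if any of them matched, and these shares were not tested.

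Of 21 tested cytokine genes 9 rose and none fell, with a median of 0.28, against 3.13% and 2.48% of all genes tested. Tnf stood at 3.39, 3.04 and 3.90, and Il1b at 3.04, 3.22 and 2.45. Tnf was highest in set 3, and Il1b lowest there. Ifnb1, which encodes interferon beta, stood at 2.00, 2.07 and 2.21. The anti-inflammatory cytokine gene Il10 stood at 1.83, 2.01 and 1.69, and Csf3, the granulocyte growth factor, at 2.16, 1.67 and 1.94. All arrays were above 0 for these 3 genes. Set 1 of Il10 rests on 1 of its 2 probes, and an untested Csf3 probe had a mean of -0.065 over sets 2 and 3. Tnfsf9, the ligand of the co-stimulatory receptor 4-1BB, stood at 2.32, 2.62 and 2.24. Il1a and Vegfa rose by 1.29 ± 0.21 and 0.84 ± 0.28, and each call was lost without set 1 or set 2. Lif rose by 0.76 ± 0.17 as the mean of 2 probes that disagree, since the weaker probe stood at -0.13. Il6 had a mean of 0.14, Il12b of -0.30 and Csf2 of 0.12, and none of them passed the test.

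Among 10 tested chemokine genes, 4 rose and none fell, with a median of 0.11, against 3.13% and 2.48% of all genes tested. Ccl4 had values in sets 2 and 3, at 2.80 and 2.84. Ccl7 rose by 1.06 ± 0.02 as the mean of 3 probes, of which the weakest was at 0.08. Cxcl16, a membrane-bound chemokine, stood at 0.87, 0.65 and 0.63. Ccl22 rose by 0.54 ± 0.41, lost its call without set 1 or set 2, and has 1 probe at -0.15. Cxcl9 had a mean of 0.03. The probes of Ccl5 disagree: the tested probe had a mean of -0.058, while another, left out of the tests for too few values elsewhere, was above 0 on all 6 arrays with a mean of 2.09 at 1 h and 3.27 at 2 h.

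Most tested genes on the receptor side of the pathway did not pass the test. Of 26 tested genes of LPS receptors and adaptors 4 rose and 3 fell, with a median of 0.06. Of all genes tested, 3.13% rose and 2.48% fell. Peli1, a ubiquitin ligase of Toll-like receptor signalling, stood at 1.71, 1.68 and 1.90. Tlr2, the receptor of bacterial lipoproteins, stood at 1.30, 0.92 and 1.13. Both were above 0 on all arrays. Ikbke, the kinase IKK epsilon, rose by 0.57 ± 0.08 as the mean of 2 probes, of which the weaker was at -0.01. Ikbkb rose by 0.22 ± 0.09 and lost its call under each set left out. Tlr4 itself stood at -0.59, -0.53 and -0.30 as the mean of 3 probes, of which 1 was at 0.02, and its call was lost without set 1 or set 2. Cd180, a Toll-like receptor homologue, stood at -0.96, -0.53 and -0.19 and also lost its call without set 1 or set 2. Tab1, a partner of the kinase TAK1, stood at -0.38, -0.76 and -0.76. Cd14, Ly96, Myd88, Traf6 and Tbk1 did not pass the test, with means of -0.061, 0.114, 0.114, -0.0038 and 0.065. The list of cytokine and chemokine receptors also holds receptors of other ligands, among them Cnr2 and Ptafr. Of its 29 tested genes, Tnfrsf1b rose by 1.06 ± 0.12 while Cnr2, which encodes a receptor of cannabinoids, fell by 1.14 ± 0.08. Il10ra and Ptafr also rose, by 0.65 ± 0.28 and 0.58 ± 0.04, but not under every set left out: Il10ra lost its call without set 1 or 3, and Ptafr without set 2 or 3.

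Of 25 tested activation markers and inflammatory effectors, 14 rose and none fell, against 3.13% and 2.48% of all genes tested. The median of the 25 was 0.65. Cd83 stood at 3.50, 3.17 and 3.55 and Cd40, the co-stimulatory receptor, at 1.46, 2.01 and 1.33. The lectin gene Clec4e, whose product senses mycobacterial lipid, stood at 2.33, 1.58 and 2.42. All 3 genes were above 0 on all arrays. Ptgs2, the inducible cyclooxygenase, stood at 1.11, 1.93 and 1.97, and Plaur, the urokinase receptor, at an even 1.77, 1.65 and 1.66. F3, which encodes tissue factor, stood at 1.24, 1.45 and 1.58. The endosomal recycling gene Ehd1 stood at 1.48, 1.41 and 1.63. Sdc4, Slfn2, Tnfaip2, Saa3 and Sod2 rose too, with means from 0.50 to 1.77. Clec4d stood at 0.65 ± 0.15 and lost its call without set 1 or set 3. Nos2, the inducible nitric oxide synthase, had a mean of -0.02.

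Survival and death genes on both sides rose. Of 20 tested 10 rose and none fell, with a median of 0.63, against 3.13% and 2.48% of all genes tested. Cflar, which blocks caspase-8, stood at 2.02, 1.66 and 2.16, and the kinase gene Pim1 at 2.78, 2.60 and 2.81. The anti-apoptotic genes Bcl2a1d and Mcl1 stood at 0.85 ± 0.06 and 0.73 ± 0.17. Bcl2l11, which encodes the pro-apoptotic protein Bim, stood at 2.38, 1.88 and 1.54. Ier3 stood at 2.50, 1.73 and 2.96, and the polo-like kinase gene Plk2 at 1.70, 1.24 and 1.98. Plk3 stood at 0.97, 0.93 and 1.80 and lost its call without set 1. Bcl2 and Bbc3 had means of -0.31 and -0.09 and did not pass the test.

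Most tested genes induced by type I interferon did not pass the test at 1 h. Of 18 tested 3 rose and 1 fell, with a median of 0.02, against 3.13% and 2.48% of all genes tested. At 2 h 17 of the 18 had risen, against 7.84% of all genes tested. Ifit1 stood at 0.59, 1.01 and 0.92 and Isg15, a ubiquitin-like protein, at 0.70, 0.98 and 1.13. Ifit3 was the other, by the probe described above. Stat2, a subunit of the interferon-activated factor ISGF3, stood at -0.74, -0.47 and -0.53 and lost its call without set 1 or set 2. Mx1 and Cmpk2 had means of -0.10 and 0.063. Members of the list outside the tests were split. Rsad2, Ifih1 and Cxcl10 were high at 1 h, as given below. Usp18, Ifi47 and Gbp2 had means of -0.13, -0.09 and 0.27.

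Calcium and cAMP responsive genes rose in 8 of 17 tested cases, with a median of 0.17, against 3.13% of all genes tested. Pde4b, the phosphodiesterase that hydrolyses cAMP, stood at 2.57, 2.27 and 2.85. The small GTPase gene Gem stood at 1.76, 1.57 and 1.48. Rcan1, which inhibits calcineurin, stood at 1.11, 1.60 and 1.16 and lost its call without set 1 or set 2, and Per1, at 0.69 ± 0.19, lost it under each set left out. Crem, Sik1 and Nfatc1 did not pass, with means of 0.09, 0.17 and -0.05.

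Stress genes gave a mixed picture. Of 16 tested genes that answer to unfolded protein or amino acid stress 5 rose, with a median of 0.55, against 3.13% of all genes tested. Ppp1r15a, which reverses phosphorylation of eIF2 alpha, stood at 2.06, 1.52 and 2.58. Herpud1, a component of protein disposal at the endoplasmic reticulum, stood at 1.36, 1.63 and 1.38, while an untested probe of it had a mean of 0.37 over sets 1 and 3. Ddit3, which encodes CHOP, stood at 1.23, 1.52 and 0.72. The amino acid transporter genes Slc3a2 and Slc7a11 rose by 0.50 ± 0.18 and 0.59 ± 0.09 and lost their calls without set 1. The chaperone gene Hspa5 had a mean of 0.32 and Xbp1 of -0.28, and neither passed. Of 8 heat shock genes tested only Dnajb1 rose, at 0.94, 1.23 and 0.85, and it lost its call without set 1. Of 12 tested Nrf2 genes, Txnrd1 rose by 0.59 ± 0.08, Slc7a11 is named above, and Osgin1 fell by 0.69 ± 0.37, a call lost without set 3. Srxn1, with values in sets 2 and 3, lost its call under each set left out.

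In metabolism the changes were small in size. Of 12 tested sterol synthesis and uptake genes 4 rose and none fell, against 3.13% and 2.48% of all genes tested. Sc5d, Cyp51, Idi1 and Msmo1 rose by 0.62 ± 0.22, 0.60 ± 0.33, 0.46 ± 0.08 and 0.39 ± 0.14. Each of these calls was lost without at least 1 set: Sc5d without set 1, Cyp51 without set 2, Idi1 without set 3 and Msmo1 under each. None of 6 tested cholesterol efflux genes passed the test, and Abcg1 had a mean of -0.51. Of 14 tested glycolysis and hypoxia genes, Slc2a1, which encodes the glucose transporter GLUT1, stood at 0.63, 0.96 and 0.29, and Vegfa is named above. Both lost their calls without set 1 or set 2. None of 29 cell cycle genes, 13 antigen presentation genes or 8 housekeeping genes tested passed the test, against 5.61% of all genes tested. Of 12 tested purinergic genes only P2ry2 rose, at 0.45 ± 0.28, a call lost without set 1 or set 2.

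**Figure D2:**
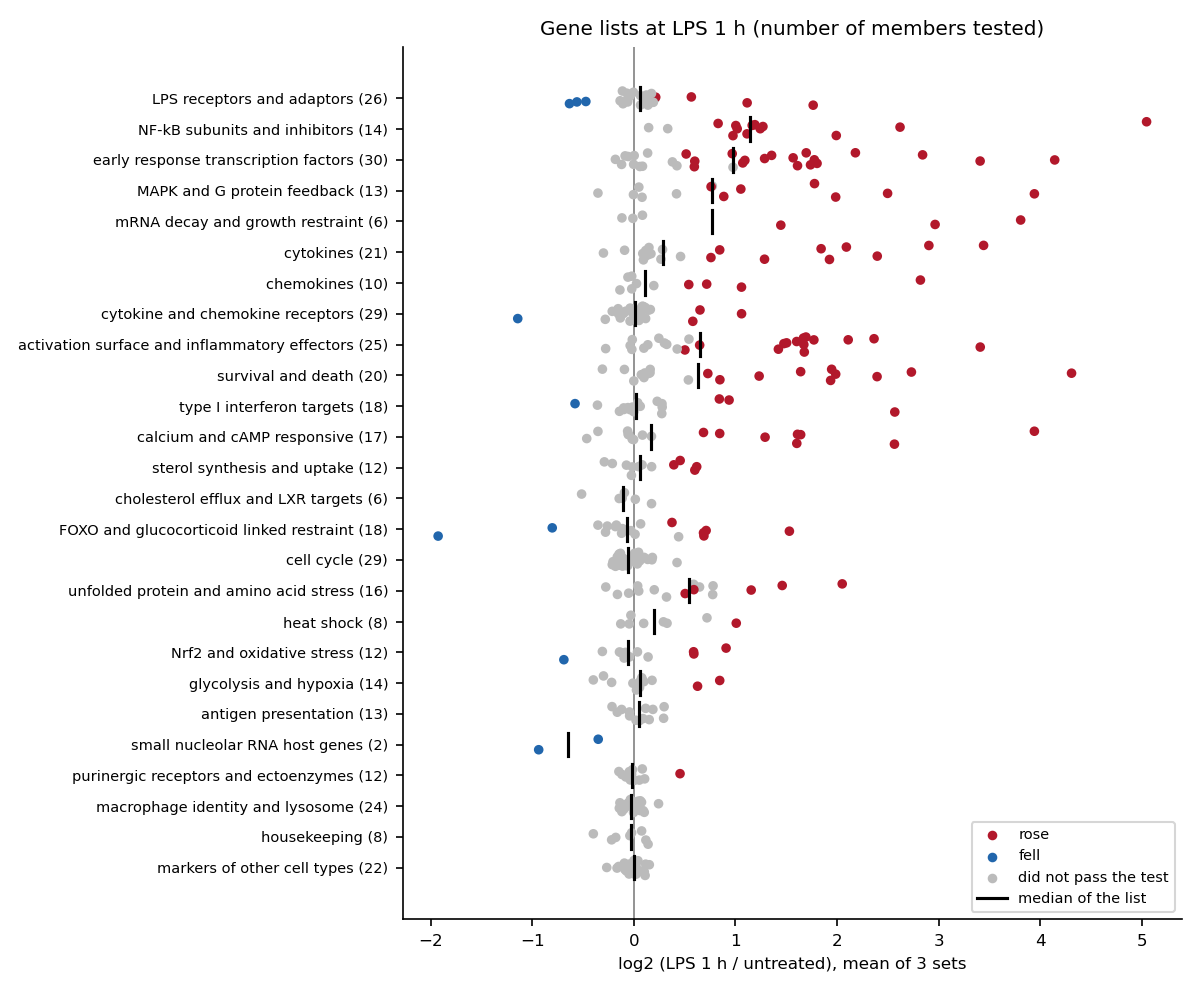
Mean log2 ratio of LPS 1 h to untreated RNA for every tested member of 26 gene lists (1 point a gene, with vertical scatter only for display), coloured by whether it rose, fell or did not pass the test, with the list's median as a bar. The NF-kB list has the highest median, 1.14, and the marker lists at the bottom lie around 0.

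The falls were led by Txnip, whose product binds thioredoxin and limits glucose entry. It stood at -2.00, -1.57 and -2.20. Sfi1, a centrosome gene, stood at -2.03, -1.41 and -1.75. After these the falls dropped quickly in size. Hhex, a homeobox gene, stood at -0.89, -1.14 and -0.86, and the polycomb gene Cbx8 at -1.27, -0.86 and -0.58. Pacc1, a proton-activated chloride channel gene, stood at -1.16, -0.84 and -0.74, and Inka1, an inhibitor of the kinase Pak4, at -0.89, -0.87 and -0.86. The other large falls were those of Cnr2, Napb, Zfp398, Slx1b and Alkbh4, with means from -0.82 to -1.14, and Snhg5. The small nucleolar RNA hosts Snhg5 and Gas5 stood at -1.13, -0.62 and -1.06 and at -0.62, -0.37 and -0.07, and the call of Gas5 was lost without set 1 or set 2. On the list of FOXO and glucocorticoid linked genes, 5 of 18 rose and 2 fell, against 3.13% and 2.48% of all genes tested. The list's median was -0.07. Tsc22d3, which encodes GILZ, stood at -0.87, -0.99 and -0.55, and its call was lost without set 1 or set 2. Id3 rose by 1.53 ± 0.36, and Cited2, Bcl6, Per1 and Foxo3 by 0.69, 0.71, 0.69 and 0.38, each lost without at least 1 set.

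Some of the strongest LPS genes stood outside these tests, because their probes lacked values in other groups. With the filter set on the 3 sets of LPS 1 h alone, 573 further genes or unnamed probes had enough values, of which 22 rose and 4 fell. Of all 12166 tested in that fit, 389 rose and 288 fell. The added ones entered by their values at LPS 1 h alone, so their calls are not support beyond the main tests. Acod1, which makes the antimicrobial metabolite itaconate, stood at 3.76, 3.32 and 4.09, and had no set value at 2 h or 4 h. The chemokine gene Cxcl10 stood at 3.37, 2.67 and 3.44, and Ccl2 at 1.95, 2.00 and 2.62. Both have 2 probes, but set 3 of Cxcl10 and sets 1 and 3 of Ccl2 rest on 1 probe, since the other lacks an array there. Ifih1, which encodes the RNA sensor MDA5, stood at 2.27, 2.01 and 1.70, and Rsad2, which encodes the antiviral enzyme viperin, at 1.68, 1.69 and 2.60. These 2 genes and Cxcl10 belong to the interferon list above and were high at 1 h, unlike most of its tested members. Ier2, an early response gene, stood at 2.13, 1.46 and 2.53 after a mean of 3.16 at 30 min. Nfkbia, which encodes IkB alpha, had values in sets 1 and 2, at 1.92 and 2.02, and Il1rn, the interleukin 1 antagonist, stood at 1.58 and 1.53 in the same sets. Cxcl2 stood at 4.98 and 4.00 in sets 1 and 2 by 1 probe, while another Cxcl2 probe had values of 1.26 and -0.64 on 2 arrays.

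**Figure D3:**
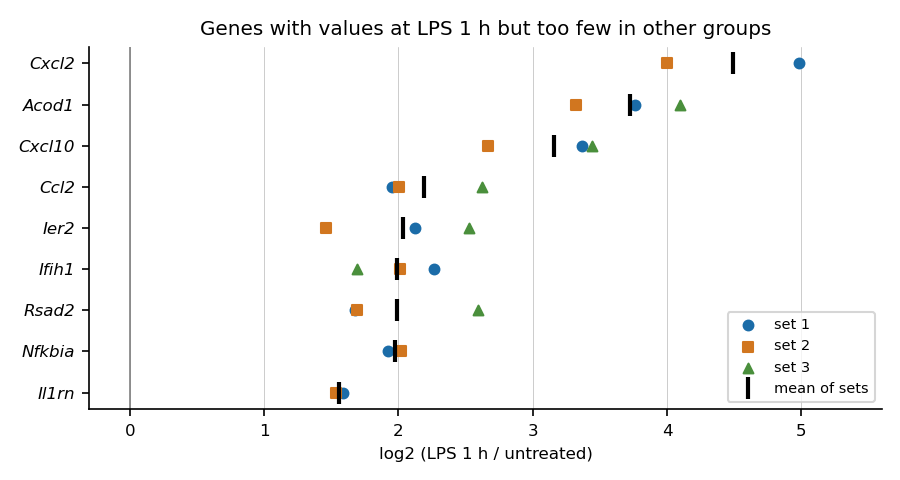
Log2 ratio of LPS 1 h to untreated RNA by set (points) with the mean of sets with a value (bar) for 9 genes with values at LPS 1 h but too few in other groups to enter the main tests. The means run from 1.56 to 4.49, and Cxcl2, Nfkbia and Il1rn lack set 3.

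Against 30 min of LPS, the response at 1 h was higher for 63 genes and lower for 18, 0.543% and 0.155% of genes tested. This asks which part of the response was built between 30 min and 1 h. With the set number as a block, since sets of the same number deviated together, the counts were 104 and 40. They were 11 and 2 without set 1, 18 and 2 without set 2, and 64 and 31 without set 3. Peli1 went from 0.04 ± 0.12 at 30 min to 1.76 ± 0.12 at 1 h, a difference of 1.72 ± 0.17 (SE, adjusted p = 2.66e-08). Gadd45b went from 0.27 ± 0.23 to 1.99 ± 0.48, and both calls held under each set left out. The repressor gene Bcl6b went from -0.08 to 2.14, with 2.63, 2.39 and 1.39 in the sets at 1 h. Klf10, a repressor induced by TGF beta, went from -0.15 to 1.78 by 1 probe, from which another probe, described below, differs. Csf3, Ifnb1, Il1b and Il10 gained between 1.62 and 1.68. The differences of Bcl6b, Klf10, Csf3, Ifnb1 and Il1b were no longer called without set 1 or set 2, that of Ifnb1 also not without set 3, and that of Il10 not without set 1.

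Genes lower at 1 h than at 30 min included the AP-1 partners Fos and Jun. Fos went from 1.57 ± 0.22 to 0.06 ± 0.30, with -0.06, -0.16 and 0.40 in the sets at 1 h (difference -1.51 ± 0.20, adjusted p = 1.08e-05). Jun went from 1.61 ± 0.15 to 0.60 ± 0.41. Sfi1, Cbx8, Cnr2, Inka1, Pacc1 and Mastl, a mitotic kinase gene, were near 0 at 30 min, from -0.32 to 0.05, and below 0 in each set at 1 h. Without set 1 or set 2 the differences of Jun, Cbx8, Cnr2, Inka1, Pacc1 and Mastl were no longer called, and that of Inka1 also not without set 3, while those of Sfi1 and Fos held under each. Of the genes called higher or lower at 1 h, set 3 was the set nearest to the 30 min mean for 30 of 63 and for 12 of 18, against 8 and 2 for set 1 and 25 and 4 for set 2.

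Against 2 h of LPS, the response at 1 h was higher for 90 genes and lower for 192, 0.776% and 1.66% of genes tested. The counts were 12 and 64 without set 1, 38 and 103 without set 2, and 65 and 186 without set 3. Of the 30 tested early response transcription factors, 4 were higher at 1 h than at 2 h and 3 were lower. Egr1 was 3.53 ± 0.68 (SE) higher at 1 h than at 2 h (adjusted p = 0.0011), and Btg2 2.83 ± 0.40 higher. Jun went from 0.60 at 1 h to -1.02 at 2 h. Ddit3 went from 1.15 to -0.28 and Ddit4, an inhibitor of mTORC1, from 0.44 to -1.28. Tcim, a small regulator of transcription, stood at 1.85, 1.06 and 2.98 at 1 h and at a mean of 0.42 at 2 h. Without set 1 the differences of Egr1, Klf10, Sertad1, Ddit4, Tcim and Ddit3 were no longer called, without set 2 those of Klf10 and Ddit4, and without set 3 those of Ddit4 and Tcim.

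Of the 18 tested interferon targets, 14 were lower at 1 h than at 2 h and none was higher. Ifit1 stood at 0.84 ± 0.22 at 1 h and had reached 3.63 ± 0.38 at 2 h, a difference of -2.78 ± 0.24 (SE, adjusted p = 2.4e-10). Cmpk2 went from 0.06 ± 0.35 to 3.06 ± 0.93, Mx2 from 0.28 ± 0.14 to 2.89 ± 0.32 and Mx1 from -0.10 ± 0.22 to 2.22 ± 0.60. The GTPase gene Irgm2, Trim21 and the niacin receptor gene Hcar2 were below 0 in mean at 1 h and between 1.74 and 2.37 at 2 h. Ifit2 stood at 2.41 at 2 h and gave a difference of -2.41 ± 0.47 (SE), no longer called without set 1 or set 2. The rest of the named differences held under each set left out.

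Higher at 1 h than at both 30 min and 2 h were 6 of the genes tested (0.0518%), and lower than at both were 4 (0.0345%). The 2 differences share the values at 1 h, so a set value that is high by chance enters both. Sertad1, a regulator of E2F factors, stood at 2.41, 2.12 and 2.03 at 1 h, between means of 0.70 at 30 min and 0.40 at 2 h. Klf10 stood at 2.11, 2.43 and 0.79, between -0.15 and -0.18. Its values overlap neither neighbour, though set 3 is far below the other sets. They rest on 1 probe. Another Klf10 probe, left out of the tests, had values of 0.02 and -0.74 on 2 arrays, of sets 1 and 3. The tested probe stood at 2.20 and 0.82 on those arrays. Which of them reports Klf10 was not tested. Mdm2, the ubiquitin ligase of p53, stood at 2.01, 1.97 and 1.82, between 0.51 and 0.81. Clk4, a kinase of splicing factors, rose by only 0.57 ± 0.09, between 0.08 and 0.07. The others were 1810013L24Rik at 1.17 ± 0.18 and an unnamed probe at 1.04 ± 0.38. Sfi1 was the deepest trough, at -1.73 ± 0.31 between 0.03 ± 0.15 and 0.01 ± 0.21, by 1 probe. Zfp54 and Zfp93, zinc finger genes, stood at -0.62 ± 0.05 and -0.59 ± 0.17, and an unnamed probe at -1.33 ± 0.40. Without set 1 there remained 1 of the 6, an unnamed probe, and without set 2 there were 3, Sertad1, 1810013L24Rik and that probe. Without set 3 there were 7, of which Klf10, Mdm2, Sertad1 and that probe were among the 6. Of the 4 troughs Sfi1 alone was left without any of the sets.

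**Figure D4:**
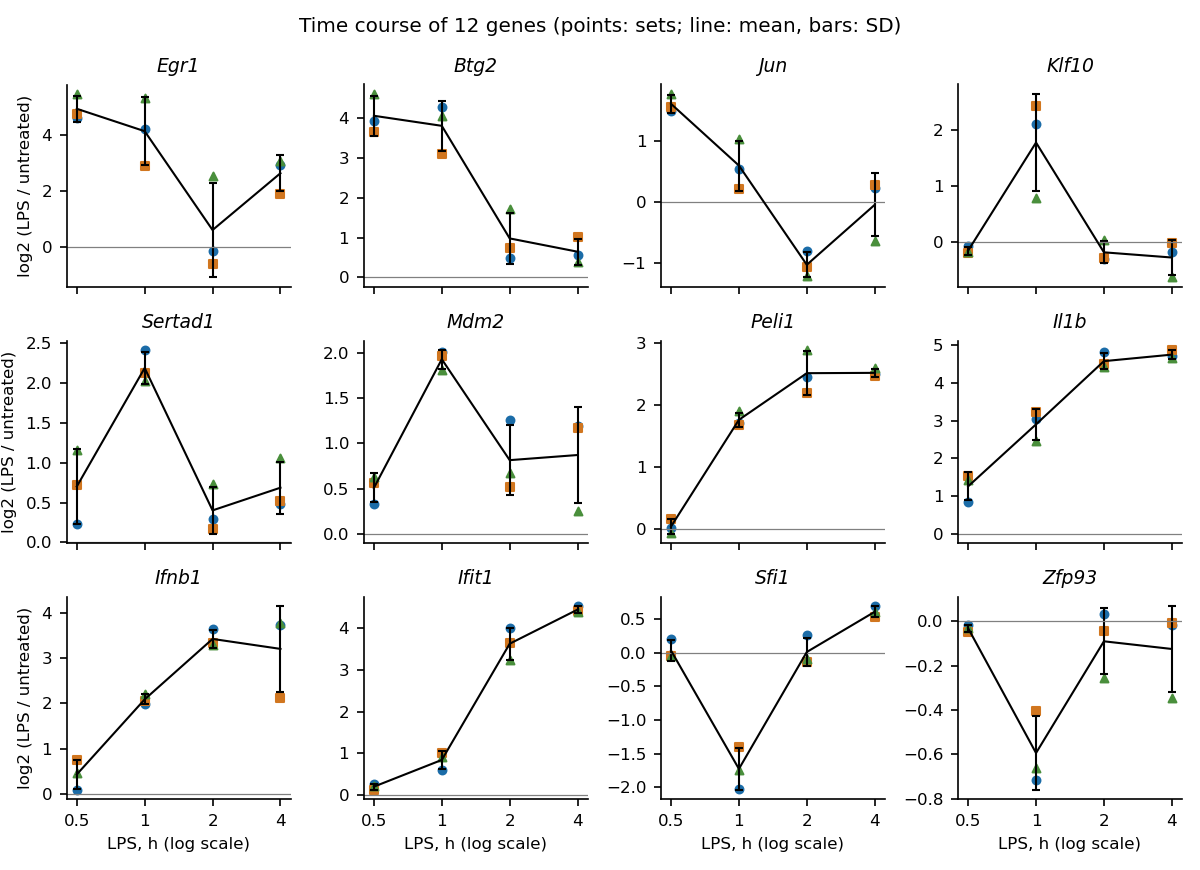
Log2 ratio of LPS to untreated RNA at 0.5, 1, 2 and 4 h (log time axis) for 12 genes, with sets as points and mean ± SD as a line. Klf10, Sertad1 and Mdm2 are highest at 1 h, Sfi1 and Zfp93 are lowest there, Jun falls below 0 at 2 h, and Ifit1 rises after 1 h.

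Much of the response at 1 h was also called later. Of the 363 risen genes, 70 had risen at 30 min, which is 19.3% of them and 83.3% of the 84 risen then, which are 0.725% of genes tested. At 2 h 289 of them were up, 79.6% of them and 31.8% of the 909 risen at 2 h, which are 7.84% of genes tested. Of the 287 fallen genes, 193 were down at 2 h, 67.2% of them and 20.4% of the 948 fallen then, 8.18% of genes tested. At 4 h 237 of the risen genes were up, 65.3% of them and 16.1% of the 1474 risen then (12.7% of genes tested), and 187 of the fallen were down, 65.2% of them and 10.2% of the 1841 fallen then (15.9%). In their direction, 56 of the risen and 60 of the fallen genes were called at no other LPS time. Besides Klf10, Bhlhe40 and Ddit3, the risen include Chka, a choline kinase gene, at 1.49, 0.98 and 1.86. Passing the test at 1 h and not at another time is not a difference between times, and among these, Bhlhe40 differed from 30 min (adjusted p = 0.0255) but not from 2 h (adjusted p = 0.209), and Chka from 2 h (adjusted p = 0.000125) but not from 30 min (adjusted p = 0.0769).

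Against IFNG for 1 h, which asks what LPS does that another macrophage ligand does not, the response to LPS was higher for 181 genes and lower for 115, 1.56% and 0.992% of genes tested, or 2.55% in all. The counts were 98 and 47 without set 1, 109 and 60 without set 2, and 141 and 102 without set 3. Whether both ligands were set against one untreated RNA is not said in the labels, and sets of the same number deviated together. With the set number as a block the counts were 233 and 160, and the values below are from the fit without it. Dusp1 stood at 3.94 ± 0.46 with LPS and -0.98 ± 0.05 with IFNG, a difference of 4.92 ± 0.35 (SE, adjusted p = 2.18e-12). Myc stood at 2.84 ± 0.27 and -1.43 ± 0.34. Both genes rose with LPS and fell with IFNG (adjusted p = 0.0352 and 7.1e-05 for the falls, limma). With IFNG 0.129% of genes tested fell. Nfkbiz, Phlda1, Egr1, Btg2, Tnf and Gpr84 were near 0 with IFNG, from -0.29 to 0.56. Of the NF-kB list 10 of 14 were higher with LPS. The difference of Egr1 was no longer called without set 1.

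The largest differences in the other direction included genes known to be induced by IFNG. The immunity-related GTPase genes Irgm2, Iigp1, Tgtp1 and Igtp stood between -0.29 and 0.03 with LPS and between 2.57 and 3.09 with IFNG. Irf1 stood at 0.60 ± 0.39 with LPS and 3.45 with IFNG, a difference of -2.85 ± 0.26 (SE, adjusted p = 1.95e-10). Socs1, the feedback inhibitor of JAK kinases, stood at 0.34, 0.61 and 0.70 with LPS and at 2.96 with IFNG. The chemokine gene Cxcl9 stood at 0.03 ± 0.07 and 2.48. Sfi1 stood at -1.73 with LPS and 0.75 with IFNG. Of these 8 genes, Irf1 and Socs1 rose with LPS, Sfi1 fell, and the rest did not pass the test. The rises of Irf1 and Socs1 were not called without set 1, that of Irf1 also not without set 3 and that of Socs1 not without set 2.

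**Figure D5:**
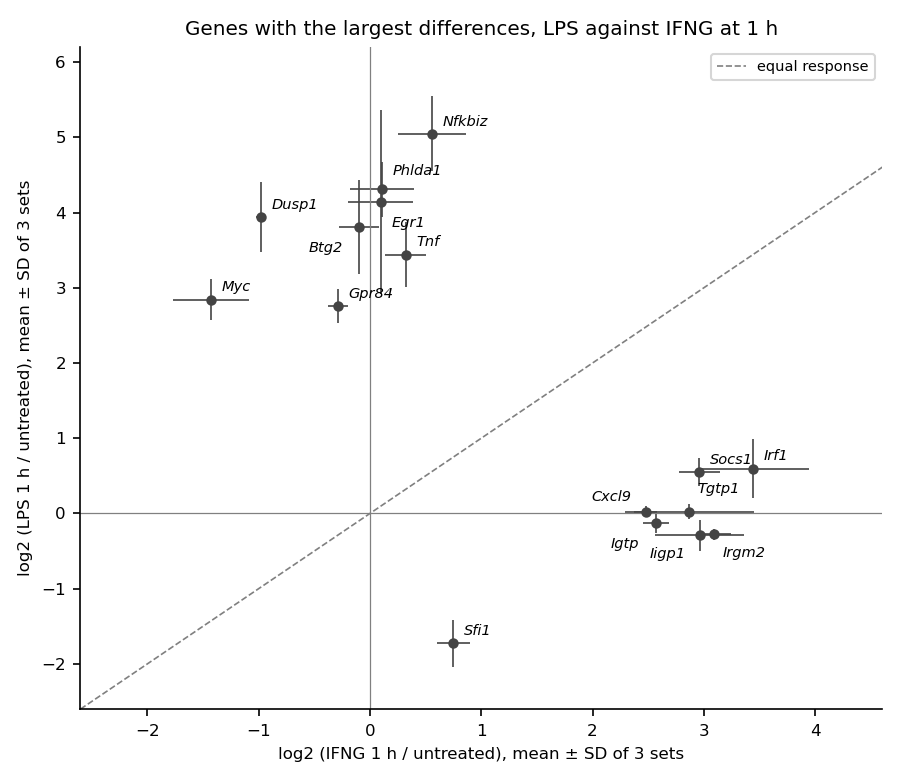
Mean ± SD over 3 sets of the log2 ratio for IFNG 1 h (horizontal) and LPS 1 h (vertical) for the 16 genes with the largest differences, with a dashed line of equal response. The 8 genes higher with LPS lie at 2.76 or above on the LPS axis and at 0.56 or below on the IFNG axis, and the 8 lower with LPS lie at 0.60 or below on the LPS axis.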

How the data were processed

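RNA of treated and untreated RAW 264.7 cells was compared on 2-colour arrays. The deposited values are log2 ratios of Cy5 to Cy3, with the largest at 6.64, which is log2 of 100. Their normalization and background correction are not stated in the labels, and the number of arrays limits precision. The sign was turned to treated over untreated by the channels named in the labels, exact zeros were read as missing, and both dye orders of a set were averaged. Probes needed a value in at least 2 of 3 sets of every group, and probes of a gene were averaged. Of 16281 probes, 13738 have 1 gene symbol, 52 several and 2491 none in the platform annotation, and 13694 symbols were updated through RefSeq. All 48 set values were fitted together in limma 3.58.1 (R 4.3.3), with eBayes, two-sided tests and Benjamini-Hochberg adjustment over all 11593 genes and unnamed probes. The procedure was tested on simulated data with independent set values, so shared deviations of sets and dye effects were not covered.

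Members and gene lists were chosen with earlier results of these data known. The genes named are the 20 largest rises and 12 largest falls among called named genes with 1 sign on all 6 arrays, the 8 largest of each difference in each direction with 1 sign in all sets, the genes above or below both neighbouring times, and list members. Sets with the same number were checked for shared deviations from their group means. The correlations were 0.105, 0.125 and 0.273 between LPS 1 h and 30 min and 0.583, 0.259 and 0.602 between LPS and IFNG. All are above 0, and those sets were read as paired, though 0.105 and 0.125 are small. They were -0.238, 0.0969 and 0.296 between 1 h and 2 h, of mixed sign, and those sets were not read as paired. Even so, the genes named against 2 h had to have 1 sign in all differences of same-numbered sets. The differences and adjusted p-values printed are from the fit without a block.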

Additional observations from a re-analysis of the deposited data

Results flagged for a closer look

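Differences between times were tested directly in limma. LPS 1 h differed from LPS 30 min in 81 genes, with Bcl6b 2.219 higher and Sfi1 at -1.756 against 30 min. It differed from LPS 2 h in 282 genes, with Egr1 3.526 higher and Cmpk2 at -2.997 against 2 h. LPS and IFNG at 1 h differed in 296 genes, with Dusp1 4.919 higher with LPS and Irgm2 at -3.370.

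Genes that differed from both neighbouring times were picked out for the same reason. Their means at 1 h were 1.169 for 1810013L24Rik, 0.570 for Clk4, 1.776 for Klf10, 1.933 for Mdm2, 2.188 for Sertad1 and 1.044 for the unnamed probe 7238, all above both times. The means of those below both times were -1.726 for Sfi1, -0.625 for Zfp54, -0.594 for Zfp93 and -1.334 for the unnamed probe 8777.

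A signal also stood in probes that the tests left out for want of values in other groups. Their means at LPS 1 h were 4.490 for Cxcl2, 3.725 for Acod1, 3.158 for Cxcl10, 2.191 for Ccl2, 2.037 for Ier2, 1.991 for Ifih1, 1.989 for Rsad2, 1.972 for Nfkbia and 1.559 for Il1rn. With 3 sets a group, no set was tested as standing apart.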

How the results depend on the processing

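Leaving out 1 set of every group moved the count for LPS 1 h to between 273 and 528, for the difference from 30 min to 13 to 95, from 2 h to 76 to 251 and from IFNG to 145 to 243, and gave 1 to 7 genes above and 1 below both neighbouring times. With treated RNA in Cy5 only, the counts were 1559 for LPS 1 h, 51 against 30 min, 183 against 2 h, and 3 above and 1 below both times. With Cy3 only they were 46, 139 and 193 for the differences from 30 min, 2 h and IFNG, and 3 above and 1 below both times. Fitting 96 arrays with a dye term gave 190, 487 and, below both times, 10. A random block for set and time gave 547 against IFNG, and the 4 LPS groups alone gave 1 below both times. The replicate block gave 144 against 30 min, including the main 81, and moved no other count by over 1.5 times: it gave 878 for LPS 1 h, 423 against 2 h, where the numbers do not pair the sets, and 393 against IFNG. The causes were not tested. Among 180 named genes, 3046 of 3216 comparisons kept the call, or the lack of one, and 5 reversed. A change of sign counted as a reversal only where the gene passed the test in either fit. Genes that passed in neither count as kept, whatever their sign. By their least responsive probe, Ccl22 was at -0.153, Ikbke at -0.0114, Lif at -0.126 and Tlr4 at 0.0246. Lif was also at -0.126 with a value on all 96 arrays, since 1 probe was left. Using 1 dye order where the other had no value, chosen after seeing the data, gave 654 for LPS 1 h.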

Other observations

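Genes named Zfp, a naming family of zinc finger proteins picked after its values were seen, held many of the falls. Of 88 tested, 18 fell and 3 rose at LPS 1 h, with a median of -0.088, while 2.48% of all genes tested fell and 3.13% rose. Zfp101 stood at -0.57, -0.61 and -0.59 in the 3 sets, Zfp53 at -0.75, -0.48 and -1.07 and Zfp90 at -0.74, -0.79 and -0.69. At 2 h 15 of the 88 were down, 13 of them also at 1 h, while 8.18% of all genes tested fell at 2 h. No test of the family was made.

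Of the 60 genes called as fallen at 1 h and at no other LPS time, Pttg1, which encodes securin, stood at -0.52, -0.95 and -0.90 and had a mean of 0.75 at 4 h. Rin2, an endocytosis gene, stood at -1.02, -0.58 and -0.36 and at a mean of 0.65 at 4 h, and its call at 1 h was lost without set 1 or set 2.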
